A study of Mus musculus with 6 samples.

Results

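Iron handling and the metallothioneins of the mouse liver were followed through 10 genes, Hamp, Bmp6, Hfe, Tfrc, Trf, Fth1, Slc40a1, Cp, Mt1 and Mt2. They were listed by name, but with earlier results of these data known. Every probe set (a group of short probes that together report one transcript) annotated to one of these genes was taken. Of 45037 probe sets, 23 named a single gene of the list and together covered 9 of the 10 genes. The only probe set for Trf, the gene of transferrin, was annotated to Srprb and Trf together. It is described below but is not counted among the 23.

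Liver RNA came from male C57BL/6J mice, 6 weeks old on arrival and 8 in each group, and was hybridised to Affymetrix MG-430 PM arrays, 2 per group. CTL mice ate laboratory chow and were given the vehicles. NASH mice were given a model of non-alcoholic steatohepatitis (fatty liver with inflammation and fibrosis), made of a diet with 60% of calories from fat from day 0 to day 24, 4 intraperitoneal injections of carbon tetrachloride at 0.1 ml/kg between day 14 and day 24, and 5 injections of T0901317, an agonist of the liver X receptors, at 2.5 ml/kg as the source states it, from day 20 to day 24. NASH+ISO mice had the same diet and injections and in addition isorhamnetin, a flavonol, by mouth at 50 mg/kg from day 11 to day 24, so the diet, the toxin and the agonist were shared by both diseased groups and their separate effects cannot be told apart. By their labels the 2 arrays of each group are technical repeats, and the sources used here do not give how many of the 8 mice stand behind an array. The comparison of NASH with CTL asks what the model changed, and that of NASH+ISO with NASH what isorhamnetin changed within it. Every p-value below measures the spread between arrays, which may be technical, and not the spread between mice.

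All values are log2 RMA signals, which RMA had put on a common scale across the arrays. A probe set was called higher or lower where the Benjamini-Hochberg adjusted p of limma, over all 45037 probe sets, was under 0.05, and 17 tag controls with no target in mouse set the background, of which the highest value was 2.90. Array pairs of a group agreed closely, with a median absolute difference between 0.0472 and 0.0529. The NASH+ISO arrays stood apart in their controls: 18S ribosomal RNA read 8.45 to 8.46 against 9.85 to 9.88 on the other 4 arrays, and the hybridisation spikes read 8.61 to 8.62 against 8.29 to 8.41. Gapdh 3′ minus 5′ signal, a measure of RNA integrity and labelling, was 3.79 to 3.82 in CTL, 3.0 to 3.01 in NASH and 3.29 to 3.30 in NASH+ISO. The part of these shifts in the results was not tested. Defining hepatocyte markers such as Alb (12.48 to 12.59 on all arrays) were high, as the tissue label states, and the summed signal of 7 such markers was 28296 to 28539 in CTL, 29199 to 29239 in NASH and 29196 to 29322 in NASH+ISO.

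Liver cells sense body iron and answer with hepcidin, the hormone made from Hamp, which binds the iron exporter ferroportin (Slc40a1) and has it degraded, so that iron stays in macrophages, enterocytes and hepatocytes. Bmp6, secreted by the sinusoidal endothelium, and the membrane protein Hfe raise Hamp transcription through BMP receptors and SMAD proteins, and interleukin 6 raises it through STAT3. Inside cells, iron regulatory proteins bind the mRNAs of Tfrc, which imports transferrin-bound iron, and of the ferritin Fth1, which stores it, and adjust them in opposite directions. Ceruloplasmin (Cp) is a copper ferroxidase that loads exported iron onto transferrin. The metallothioneins Mt1 and Mt2 are small proteins rich in cysteine that bind zinc and copper, and the zinc-sensing factor Mtf1 drives them through metal response elements.

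Promoter sequences are shown for Hamp and its neighbour Hamp2, which separate below, and for Mt2, which had the deepest fall among the 23 probe sets. They are the 250 bases before each gene's start in RefSeq, build GRCm38.p6, which had windows for 8 of the 10 genes and for Hamp2. Capitals mark exact matches on either strand. In the hepcidin genes these are of GGCGCC, a BMP response element, and TTCNNNGAA, a STAT site. In Mt2 they are of TGCNCNC, a loose pattern for the core of a metal response element that allows any base at N. No marked matches overlapped. The windows lie at chr7:30944030-30944279, minus strand for Hamp, chr7:30924182-30924431, minus strand for Hamp2 and chr8:94172368-94172617, plus strand for Mt2.
Hamp: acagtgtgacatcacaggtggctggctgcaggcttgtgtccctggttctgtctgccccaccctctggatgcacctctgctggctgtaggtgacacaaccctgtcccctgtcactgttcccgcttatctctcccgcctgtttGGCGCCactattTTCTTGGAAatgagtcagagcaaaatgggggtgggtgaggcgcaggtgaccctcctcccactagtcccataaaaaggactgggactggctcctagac
Hamp2: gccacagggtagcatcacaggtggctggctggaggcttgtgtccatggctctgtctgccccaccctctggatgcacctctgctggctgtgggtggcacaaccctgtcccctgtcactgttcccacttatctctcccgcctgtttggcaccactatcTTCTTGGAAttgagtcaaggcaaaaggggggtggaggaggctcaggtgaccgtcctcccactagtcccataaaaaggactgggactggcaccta
Mt2: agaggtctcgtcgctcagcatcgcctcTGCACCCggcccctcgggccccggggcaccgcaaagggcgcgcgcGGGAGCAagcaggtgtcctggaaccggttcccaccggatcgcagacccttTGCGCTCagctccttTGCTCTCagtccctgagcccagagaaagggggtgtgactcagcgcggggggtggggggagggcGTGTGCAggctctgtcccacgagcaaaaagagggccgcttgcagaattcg
Hamp and Hamp2 were identical at 227 of 253 aligned positions (89.7%). Both windows held 1 STAT site, at position -97 in Hamp and -94 in Hamp2 counted from the gene start, whereas GGCGCC was found in Hamp alone, at position -109. In the alignment Hamp2 differed from that element by the single substitution G4A, counted from 1 at its 5′ end. Among 27025 promoter windows of the same length, 9.54% held GGCGCC and 7.18% held TTCNNNGAA. The Mt2 window held 5 matches to the loose pattern TGCNCNC, at positions -223, -178, -128, -113 and -50. A match to this pattern was present in 43.8% of all windows, 3 or more in 4.61% and 5 or more in 0.311%. Windows of the other listed genes held 0 to 3, with 3 in a window of Tfrc and 1 in that of Mt1. How many of the 5 in Mt2 would pass a stricter pattern was not counted. The Mt1 window is not shown, because the gene start it was taken from may not be the one used in liver. A match is only a stretch of letters, and these windows depend on the start that RefSeq gives to each gene.

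Most probe sets of these genes changed in NASH livers, in both directions. Of the 23, 11 were higher and 6 lower in NASH than in CTL, where 22.0% of all probe sets were called higher and 27.2% lower. By the thresholds of the study, a fold change of at least 2 with an unadjusted p under 0.05, 4 of the 23 passed, against 3.60% of all probe sets. They were single probe sets of Tfrc and Cp, which rose, and of Mt1 and Mt2, which fell. The median of the absolute log2 difference was 0.355 over the 23 and 0.148 over all probe sets.

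In NASH+ISO against CTL, 9 of the 23 were higher and 6 lower, beside 21.2% and 21.5% of all probe sets. Here too 4 passed the 2-fold rule, against 2.14% of all. These were single probe sets of Tfrc, which rose, and of Slc40a1, Mt1 and Mt2, which fell. For Mt1 it was the dimmer 1451612 (-1.06), whereas the brighter 1422557 passed in NASH against CTL (-1.32) but not here (-0.84). In NASH+ISO against NASH, 7 were higher and 9 lower, beside 19.5% and 17.7% of all probe sets, and none reached 2-fold, against 0.770% of all. Without NASH replicate 2 the 16 calls of this last comparison became 10. Median centring of each array turned its 7 higher and 9 lower into 3 and 10, while over all probe sets the share of calls that were higher went from 52.5% to 41.5%. The plot of all 23 probe sets shows these differences.

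**Figure D1:**
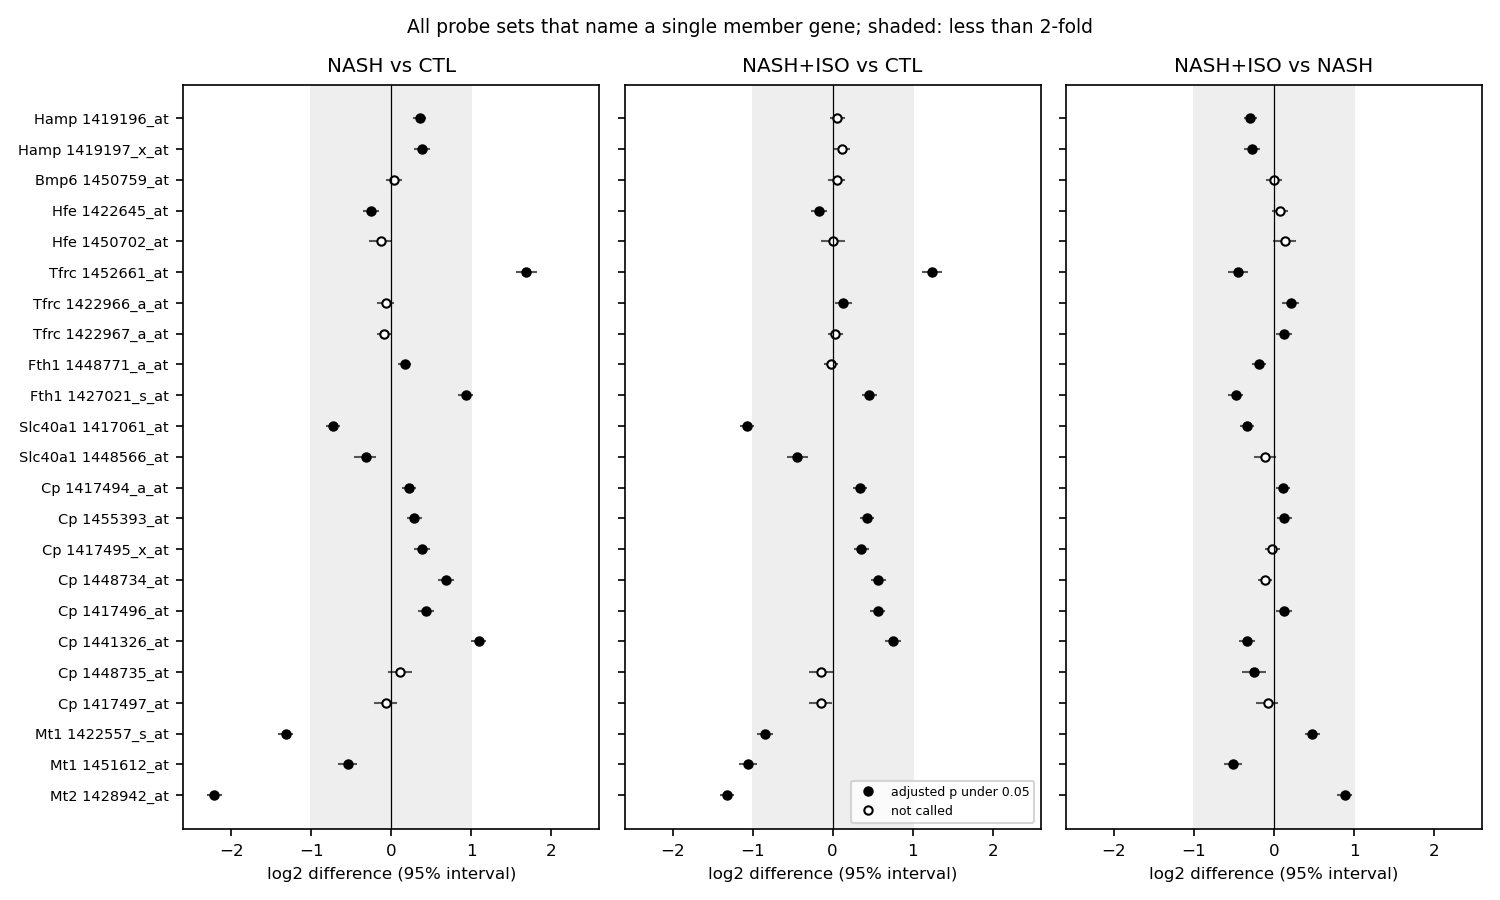
Log2 difference with its 95% interval (horizontal axis) for each of the 23 probe sets (rows) in the 3 comparisons; filled points passed an adjusted p of 0.05 and the shaded band marks changes smaller than 2-fold. Mt2 lay farthest to the left in NASH against CTL, at -2.21, and Tfrc 1452661 farthest to the right, at 1.69, and no point of NASH+ISO against NASH left the band.

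Hamp rose modestly in NASH and returned near the control level with isorhamnetin. Its brighter probe set, 1419196, read 11.01 and 10.99 for CTL, 11.36 and 11.35 for NASH, and 11.05 and 11.07 for NASH+ISO. The NASH arrays lay above all others, and the NASH+ISO arrays lay just above CTL without overlap. The rise in NASH was 0.36 ± 0.037 (log2 difference ± SE, 1.28-fold, limma adjusted p = 0.000199), and NASH+ISO was 0.30 below NASH (1.23-fold, limma adjusted p = 0.000928). Against CTL the NASH+ISO value differed by 0.06, with a 95% interval from -0.03 to 0.15 (limma adjusted p = 0.238). That difference passed the threshold when the spread was not moderated (limma adjusted p = 0.0279) or followed the mean level (0.000362).

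The second Hamp probe set, 1419197, gave the same order with differences of 0.39, 0.12 and -0.27 for NASH over CTL, NASH+ISO over CTL and NASH+ISO over NASH. Its NASH+ISO value did not pass against CTL (limma adjusted p = 0.0587). It did pass where dim probe sets were left out, the spread followed the mean level, arrays were median-centred or the workbook values were used (0.000121 to 0.0498).

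Hamp2, the paralog of Hamp that lies next to it on the chromosome, did not follow it. Its bright probe set, 1436643, read 10.44 and 10.49 for CTL, 10.90 and 10.86 for NASH, and 11.75 and 11.71 for NASH+ISO, so the groups rose stepwise with no overlap. NASH was 0.41 ± 0.041 above CTL (limma adjusted p = 0.00015) and NASH+ISO was 1.26 above CTL (2.40-fold, limma adjusted p = 1.12e-06) and 0.85 above NASH (1.80-fold, limma adjusted p = 1.85e-05). Hamp fell and Hamp2 rose in the same comparison of NASH+ISO with NASH. The suffix of 1436643, which Hamp probe set 1419197 also has, marks probe sets whose probes may bind related transcripts. The other Hamp2 probe set, 1456289, was at background (2.75 to 2.88). How far each signal belongs to each paralog is therefore uncertain.

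Bmp6 and Hfe, which act above Hamp, moved little. Bmp6 read 3.07 to 3.15 on the 6 arrays, close to background, and differed by 0.04 in NASH and 0.05 in NASH+ISO from CTL, with intervals within -0.06 to 0.15 (limma adjusted p = 0.45 and 0.432). Hfe probe set 1422645 read 7.14 and 7.11 for CTL, 6.84 and 6.91 for NASH, and 6.95 and 6.96 for NASH+ISO, with CTL above both. It fell by 0.25 ± 0.042 in NASH (limma adjusted p = 0.0021) and by 0.17 in NASH+ISO (limma adjusted p = 0.0146), and the latter call was lost without CTL replicate 1 (0.0646) or NASH+ISO replicate 1 (0.0625). The dimmer Hfe probe set, 1450702, differed by -0.13, 0.01 and 0.14 and was not called. It did pass in NASH against CTL under quantile normalization (-0.22, limma adjusted p = 0.0218) or with the workbook values (-0.18, 0.0146), and in NASH+ISO against NASH with the workbook values (0.18, 0.023) or without NASH+ISO replicate 1 (0.22, 0.0336). With the mean of both probe sets, Hfe fell by 0.19 in NASH (limma adjusted p = 0.00676), and its difference of -0.08 in NASH+ISO from CTL did not pass (0.142).

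Of 22 other genes of hepcidin control, 21 were measured. In NASH, 7 were higher and 7 lower than in CTL, where 24.7% of 20726 genes, taken by their brightest probe set, were higher and 28.3% lower. In NASH+ISO, 6 were higher and 9 lower than in CTL (23.2% and 23.0% of all genes), and 7 higher and 6 lower than in NASH (19.9% and 19.8%). The list median was 0.04, -0.03 and -0.02 on the log2 scale, against -0.03, -0.01 and 0.02 over all genes.

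Single members moved far. Hjv, the BMP co-receptor hemojuvelin, read 6.87 and 6.86 for CTL, 8.19 and 8.18 for NASH, and 8.50 and 8.46 for NASH+ISO, and rose by 1.32 and 1.62 over CTL (limma adjusted p = 4.17e-07 and 2.86e-07). Id1, a direct target of BMP signalling, read 4.19 and 4.24 for CTL, 5.57 and 5.54 for NASH, and 6.14 and 6.24 for NASH+ISO. It rose by 1.34 and 1.98 over CTL and was 0.64 higher in NASH+ISO than in NASH (limma adjusted p = 0.0001). Both genes had the group order of Hamp2, CTL lowest and NASH+ISO highest, and not that of Hamp. Other members of the list, named here after their values were seen, differed from this. Acvr1 and Bmpr2 had the order of Hamp, with 0.90 and 0.32 for NASH over CTL and -0.71 and -0.24 for NASH+ISO over NASH. Smad6, a SMAD inhibitor close to background (2.83 to 3.23), had that order too, with 0.36 and -0.27. Acvr2a fell against CTL by 0.37 in NASH and 0.73 in NASH+ISO, and Atoh8 by 0.21 and 0.23.

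On the interleukin 6 side, Il6ra and Socs3 fell. Il6ra, the receptor for interleukin 6, read 8.54 on both CTL arrays, 5.81 and 5.84 for NASH, and 7.09 and 7.05 for NASH+ISO. It fell by 2.72 in NASH (6.58-fold, limma adjusted p = 3.46e-08) and by 1.47 in NASH+ISO, which was 1.25 above NASH. Socs3, an inhibitor that STAT3 induces, fell by 1.46 and 1.5 against CTL, and NASH+ISO and NASH overlapped. Stat3 itself (7.53 to 7.57 on all arrays) and Smad7, a SMAD inhibitor (5.65 to 5.73), were not called in any comparison, and Il6 was at background (1.99 to 2.15). Tfr2, a transferrin sensor of hepatocytes, and Tmprss6, a protease that cuts hemojuvelin, named here after their values were seen, fell by 0.46 and 0.47 in NASH and by 0.39 and 0.28 in NASH+ISO against CTL (limma adjusted p from 5.42e-05 to 0.00122).

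Bmp2, the other BMP ligand of the liver endothelium, was 0.20 higher in NASH+ISO than in NASH (limma adjusted p = 0.00625). Beside it, 6 of 8 markers of sinusoidal endothelium were higher in the same comparison and none lower (19.9% and 19.8% of all genes). Their summed signal was 418 to 423 in CTL, 398 to 405 in NASH and 550 to 557 in NASH+ISO. The part of these cells in the levels of Bmp2 and Bmp6 was not tested. In bulk liver, fewer cells of a type and less RNA per cell cannot be told apart. The plot of the hepcidin genes and their control sets these levels side by side.

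**Figure D2:**
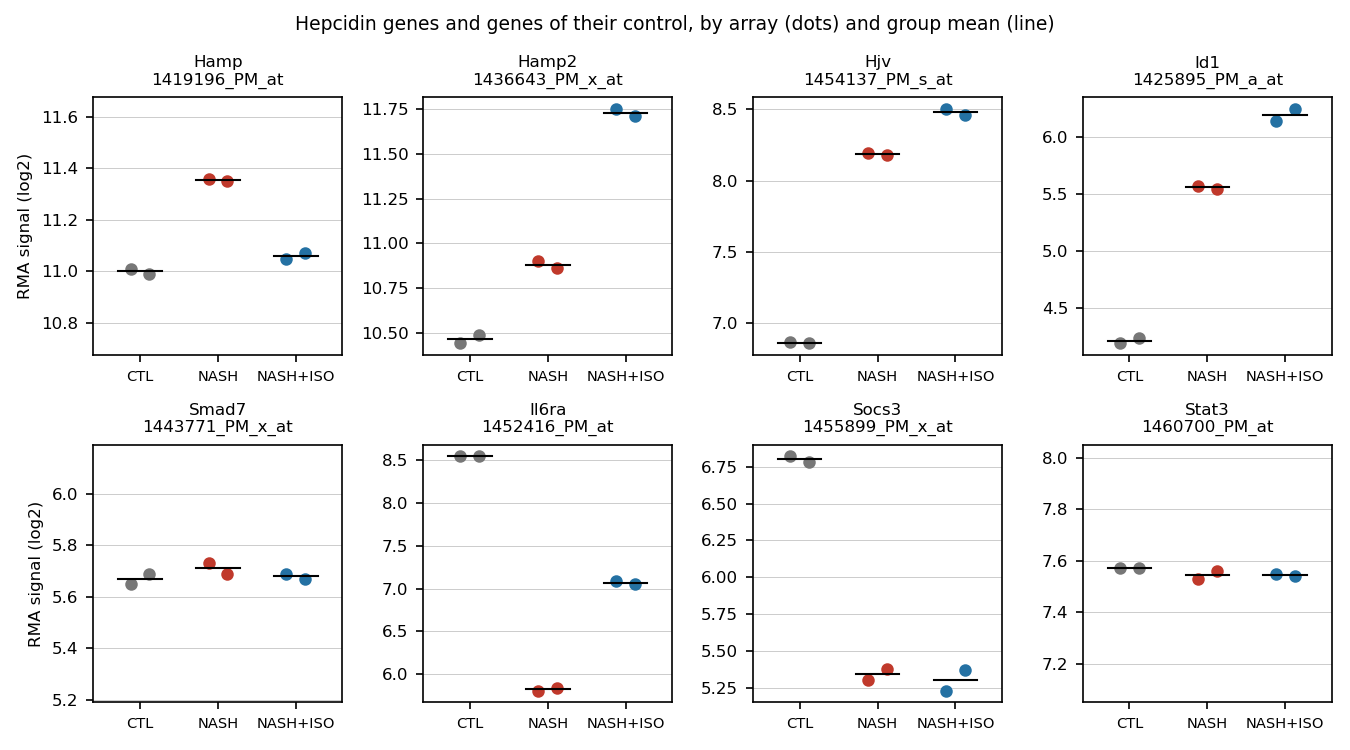
RMA signal (log2, vertical axes, each panel with its own range of at least 1 unit) of Hamp, Hamp2 and 6 genes of hepcidin control on the 2 arrays (dots) of each group, with the group mean as a line. Hamp peaked in NASH, Hamp2, Hjv and Id1 were highest in NASH+ISO, Il6ra was lowest in NASH, and Smad7 (5.65 to 5.73) and Stat3 (7.53 to 7.57) stayed within narrow ranges.

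Tfrc, the receptor that takes up transferrin-bound iron, had the strongest rise among the 23. Probe set 1452661 read 6.19 and 6.16 in CTL, 7.79 and 7.94 in NASH, and 7.42 on both NASH+ISO arrays, with no overlap between groups. It rose by 1.69 ± 0.054 in NASH (3.23-fold, limma adjusted p = 6.6e-07) and by 1.24 ± 0.054 in NASH+ISO (2.37-fold, limma adjusted p = 4.1e-06), and fell by 0.45 from NASH to NASH+ISO (limma adjusted p = 0.00079).

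The other Tfrc probe sets did not share this. Probe set 1422966 read 3.64 to 3.90 and differed from CTL by -0.07 in NASH and 0.13 in NASH+ISO, the latter passing only narrowly (limma adjusted p = 0.0434) and not when any single array was left out (0.056 to 0.177, the arrays of NASH included). Probe set 1422967 (2.46 to 2.59) and 3 control probe sets for the same transcript (1.75 to 2.42) were at background. In NASH+ISO against NASH the changes of 1422966 and 1422967 were called in the opposite direction to 1452661, higher by 0.21 (limma adjusted p = 0.00928) and 0.12 (limma adjusted p = 0.0497). The first call was lost without NASH replicate 2 (0.0617) or NASH+ISO replicate 1 (0.0522), and the second without any single array (0.0536 to 0.18). With the mean of all 3 probe sets in place of the brightest, Tfrc differed by -0.04 between NASH+ISO and NASH (limma adjusted p = 0.393).

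Genes of cell division moved with Tfrc probe set 1452661, and dividing cells raise Tfrc. Of 10 proliferation markers, 7 were higher and none lower in NASH than in CTL (24.7% and 28.3% of all genes). In NASH+ISO against NASH, 8 were lower and none higher (19.8% and 19.9%). Their summed signal was 203 to 211 in CTL, 1115 to 1129 in NASH and 440 to 457 in NASH+ISO. This was the group order of Tfrc 1452661, but not of 1422966 or 1422967, which were lowest in NASH. Alas2 and Klf1, markers of the erythroid cells that use Tfrc most, fell by 1.62 and 1.06 in NASH, and the summed signal of 7 erythroid markers was 188 to 192 in CTL, 100 to 104 in NASH and 107 to 112 in NASH+ISO, with the red cell genes Slc4a1 and Rhag at background on all arrays (2.08 to 2.84). The part of dividing or erythroid cells in the Tfrc level was not tested.

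The probe set annotated to both Srprb and Trf read 11.31 and 11.32 in CTL, 11.77 and 11.79 in NASH, and 11.56 on both NASH+ISO arrays. It rose by 0.47 in NASH (limma adjusted p = 4.6e-05) and by 0.25 in NASH+ISO (limma adjusted p = 0.0016), and NASH+ISO lay below NASH without overlap. Srprb, a subunit of the signal recognition particle receptor, lies next to Trf, and its own probe sets differed by 0.30, 0.56 and -0.07 in NASH, of which the first and second passed. The share of Trf in the joint signal cannot be told apart from that of Srprb.

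**Figure D3:**
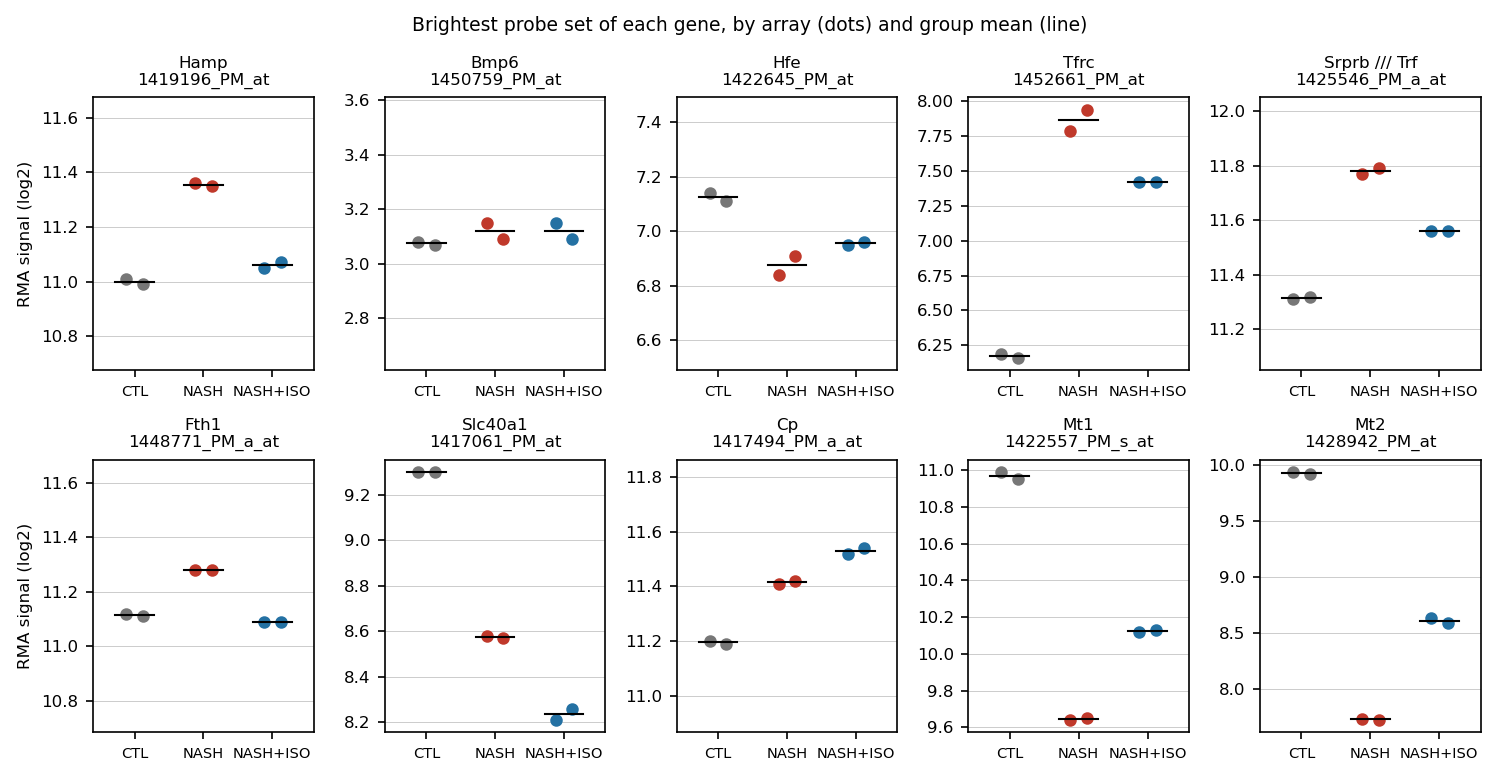
RMA signal (log2, vertical axes, each panel with its own range of at least 1 unit) of the brightest probe set of each gene on the 2 arrays (dots) of each group, with the group mean as a line; Trf is shown by the probe set it shares with Srprb. Tfrc, Hamp, Fth1 and the shared Trf probe set were highest in NASH, Mt1 and Mt2 were lowest there, and Slc40a1 was lowest in NASH+ISO.

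Ferritin heavy chain was higher in NASH, by an amount that depended on the probe set. Fth1 probe set 1448771 read 11.12 and 11.11 in CTL, 11.28 on both NASH arrays and 11.09 on both NASH+ISO arrays. Its rise of 0.17 ± 0.037 in NASH (limma adjusted p = 0.00817) was lost under quantile normalization (0.0759), and NASH+ISO was 0.02 below CTL, with an interval from -0.11 to 0.07. Probe set 1427021 read 9.80 and 9.83 for CTL, 10.74 and 10.76 for NASH, and 10.27 and 10.28 for NASH+ISO. It rose by 0.93 (1.91-fold, limma adjusted p = 1.84e-06) and 0.46 (limma adjusted p = 8.54e-05), so the groups were fully apart. From NASH to NASH+ISO both probe sets fell, by 0.19 and 0.48. Ferritin genes have many processed copies in the genome, and 3 probe sets that name the light chain Ftl1 among several genes differed by 0.29 to 0.65 in NASH from CTL.

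Slc40a1, which encodes ferroportin, the only known cellular iron exporter, was lower in both diseased groups and lowest with isorhamnetin. Probe set 1417061 read 9.30 on both CTL arrays, 8.58 and 8.57 for NASH, and 8.21 and 8.26 for NASH+ISO, with no overlap. It fell by 0.73 ± 0.039 in NASH (1.66-fold, limma adjusted p = 6.35e-06) and by 1.07 ± 0.039 in NASH+ISO (2.10-fold, limma adjusted p = 1.85e-06), and by a further 0.34 from NASH to NASH+ISO (limma adjusted p = 0.000614). Probe set 1448566 fell by 0.32 and 0.44 against CTL, and its difference of -0.11 between NASH+ISO and NASH did not pass (limma adjusted p = 0.156).

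Kupffer cells, the liver macrophages that recycle red cell iron and carry much ferroportin, were followed through 8 markers. Their summed signal was 738 to 743 in CTL, 943 to 952 in NASH and 676 to 689 in NASH+ISO. In NASH, 4 of the 8 were higher and 1 was lower than in CTL (24.7% and 28.3% of all genes). In NASH+ISO against NASH 6 were lower and none higher (19.8% and 19.9%). Cd5l, the brightest of the 8 in NASH and so a large part of the sum, rose by 1.31 in NASH (limma adjusted p = 4.61e-07). It fell by 0.78 from NASH to NASH+ISO. Vsig4 and Adgre1 were not called in NASH against CTL. The marker Clec4f stayed between 5.68 and 5.81 on all arrays, while Csf1r, shared with other macrophages, fell by 0.45 and 0.64 against CTL. Of 7 markers of recruited macrophages, 3 were higher in NASH than in CTL (24.7% of all genes). These were Lgals3 (2.91), Spp1 (1.14) and Gpnmb (0.78), of which Spp1 is also on the list of cholangiocyte markers. Cd68, Itgam, Ccr2 and Trem2 differed by -0.03 to 0.09 and were not called. The summed signal of the 7 was 226 to 227 in CTL, 601 to 610 in NASH and 515 to 522 in NASH+ISO. The part of macrophage number in the Slc40a1 level was not tested.

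Ceruloplasmin was higher in both diseased groups. Of 8 Cp probe sets, 6 rose in NASH, by 0.22 to 1.10, and the same 6 rose in NASH+ISO, by 0.34 to 0.76. The brightest, 1417494, read 11.20 and 11.19 for CTL, 11.41 and 11.42 for NASH, and 11.52 and 11.54 for NASH+ISO, and rose by 0.22 ± 0.037 (limma adjusted p = 0.00225) and 0.34 ± 0.037 (limma adjusted p = 0.000357). The widest change was that of 1441326, which read 5.22 and 5.29 for CTL, 6.35 and 6.36 for NASH, and 6.01 and 6.02 for NASH+ISO (1.10 and 0.76, limma adjusted p = 1.22e-06 and 1.03e-05). The dim probe sets 1448735 and 1417497 (3.18 to 3.93) were not called against CTL.

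Between NASH+ISO and NASH the Cp probe sets disagreed. Of the 8, 3 were higher by 0.11 to 0.13, 2 fell by 0.25 and 0.34, and 3 were not called. All 3 rises were lost under median centring (limma adjusted p = 0.0889 to 0.144) and without any 1 array of NASH or NASH+ISO. The fall of 1441326 was not lost under any alternative run. That of 1448735 was lost without any 1 of these arrays, without moderation of the spread (limma adjusted p = 0.134) and with the workbook values (0.167). Probe set 1448734, not called in the main fit, passed as a fall under several alternatives. Among them were median centring (-0.14, limma adjusted p = 0.0273) and the workbook values (-0.15, 0.0119). With the mean of all 8 in place of the brightest, the difference was -0.05 (limma adjusted p = 0.225).

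Of 20 measured genes of iron uptake, storage and export other than the 10, 9 were higher and 3 lower in NASH than in CTL (24.7% and 28.3% of all genes). In NASH+ISO 6 were higher and 5 lower than in CTL (23.2% and 23.0%), and 4 higher and 9 lower than in NASH (19.9% and 19.8%). The median log2 differences were 0.02, -0.06 and -0.04, against -0.03, -0.01 and 0.02 over all genes. Lcn2, which encodes lipocalin 2, a protein that binds iron-carrying siderophores in the acute phase, read 3.37 and 3.50 for CTL, 5.31 and 5.27 for NASH, and 5.17 and 5.28 for NASH+ISO. It rose by 1.86 and 1.79 (limma adjusted p = 6.91e-07 and 1.29e-06), and the diseased groups overlapped. Steap4, a metalloreductase, read 7.45 and 7.44 for CTL, 7.98 and 7.97 for NASH, and 6.86 and 6.91 for NASH+ISO, thus above control in NASH and below it with isorhamnetin (a fall by 1.09 from NASH, limma adjusted p = 6.59e-06). Pcbp1, a chaperone that delivers iron to ferritin, rose by 0.80 and 0.65.

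All 18 genes of heme and hemoglobin handling were measured. In NASH 10 were higher and 4 lower than in CTL (24.7% and 28.3% of all genes), in NASH+ISO 9 were higher and 7 lower than in CTL (23.2% and 23.0%), and in NASH+ISO against NASH 3 were higher and 11 lower (19.9% and 19.8%). The medians were 0.15, 0.04 and -0.15, beside -0.03, -0.01 and 0.02 over all genes. Alas1, the rate-limiting enzyme of heme synthesis in liver, read 9.27 and 9.31 for CTL, 9.28 and 9.24 for NASH, and 8.13 and 8.14 for NASH+ISO. It fell by 1.13 from NASH to NASH+ISO (2.18-fold, limma adjusted p = 5.72e-06), and CTL and NASH overlapped. Ppox, a later enzyme of the pathway, rose by 1.13 and 1.16 over CTL. The heme exporter Flvcr1 rose by 1.19 and 0.70 over CTL. Cd163, the macrophage receptor for haptoglobin-bound hemoglobin, read 5.16 and 5.39 for CTL, 4.01 and 4.15 for NASH, and 4.58 and 4.56 for NASH+ISO, and fell by 1.19 and 0.70.

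In NASH against CTL, the deepest falls among the 23 probe sets were those of Mt2 and of the brighter Mt1 probe set. Mt2 probe set 1428942 read 9.94 and 9.92 for CTL, 7.73 and 7.72 for NASH, and 8.63 and 8.59 for NASH+ISO, so NASH+ISO lay between the other groups with no overlap. It fell by 2.21 ± 0.039 in NASH (4.61-fold, limma adjusted p = 6.57e-08) and by 1.32 ± 0.039 in NASH+ISO (2.50-fold, limma adjusted p = 7.01e-07). NASH+ISO was 0.89 ± 0.039 above NASH (1.85-fold, limma adjusted p = 1.3e-05).

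Mt1 probe set 1422557 had the same order. It read 10.99 and 10.95 for CTL, 9.64 and 9.65 for NASH, and 10.12 and 10.13 for NASH+ISO. It fell by 1.32 in NASH and by 0.84 in NASH+ISO (limma adjusted p = 4.43e-07 and 4.92e-06), and NASH+ISO was 0.48 above NASH (limma adjusted p = 0.000131). The dimmer probe set, 1451612, read 4.91 and 5.01 for CTL, 4.41 and 4.42 for NASH, and 3.88 and 3.93 for NASH+ISO. It also fell against CTL, by 0.54 and 1.06, but was lowest with isorhamnetin and fell by 0.51 from NASH to NASH+ISO (limma adjusted p = 0.000253). With the mean of both probe sets, NASH+ISO and NASH differed by -0.02 (limma adjusted p = 0.67). The direction of Mt1 with isorhamnetin in NASH therefore rests on which probe set is read.

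Of 20 other genes of zinc and copper handling, 10 were higher and 5 lower in NASH than in CTL (24.7% and 28.3% of all genes). In NASH+ISO 9 were higher and 7 lower than in CTL (23.2% and 23.0%), and none was higher and 6 lower than in NASH (19.9% and 19.8%). Their medians were 0.16, -0.04 and -0.03, and those of all genes -0.03, -0.01 and 0.02. Mt3 and Mt4, metallothioneins of brain and of stratified epithelium, read 3.31 and 1.60 on average in CTL. Mtf1, the activator of Mt1 and Mt2, named here after its values were seen, read 6.42 and 6.41 for CTL, 6.01 and 6.02 for NASH, and 6.06 and 6.07 for NASH+ISO, and fell by 0.41 and 0.35 (limma adjusted p = 9.63e-05 and 0.000278).

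Slc30a1, a zinc exporter that Mtf1 also induces, read 7.51 and 7.50 for CTL, 7.59 and 7.52 for NASH, and 6.59 and 6.65 for NASH+ISO. It fell by 0.93 from NASH to NASH+ISO (limma adjusted p = 1.69e-05), whereas bright probe sets of Mt1 and Mt2 rose in that comparison. Among zinc importers, Slc39a10 read 4.00 and 3.94 for CTL, 5.10 and 5.13 for NASH, and 4.29 and 4.36 for NASH+ISO. It rose by 1.14 in NASH and fell by 0.79 from NASH to NASH+ISO (limma adjusted p = 3.37e-05). Slc39a5 rose by 1.04 and 1.21 over CTL, and its difference of 0.17 between the diseased groups did not pass (limma adjusted p = 0.0506).

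Taking the 4 lists together, 36 of 79 genes were higher and 19 lower in NASH than in CTL (24.7% and 28.3% of all genes), a split that became 30 and 29 under quantile normalization. In NASH+ISO 30 were higher and 28 lower than in CTL (23.2% and 23.0%). In NASH+ISO against NASH 14 were higher and 32 lower (19.9% and 19.8%), which became 19 and 27 under quantile normalization. The plot of the shares called in each list sets these counts beside all genes.

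**Figure D4:**
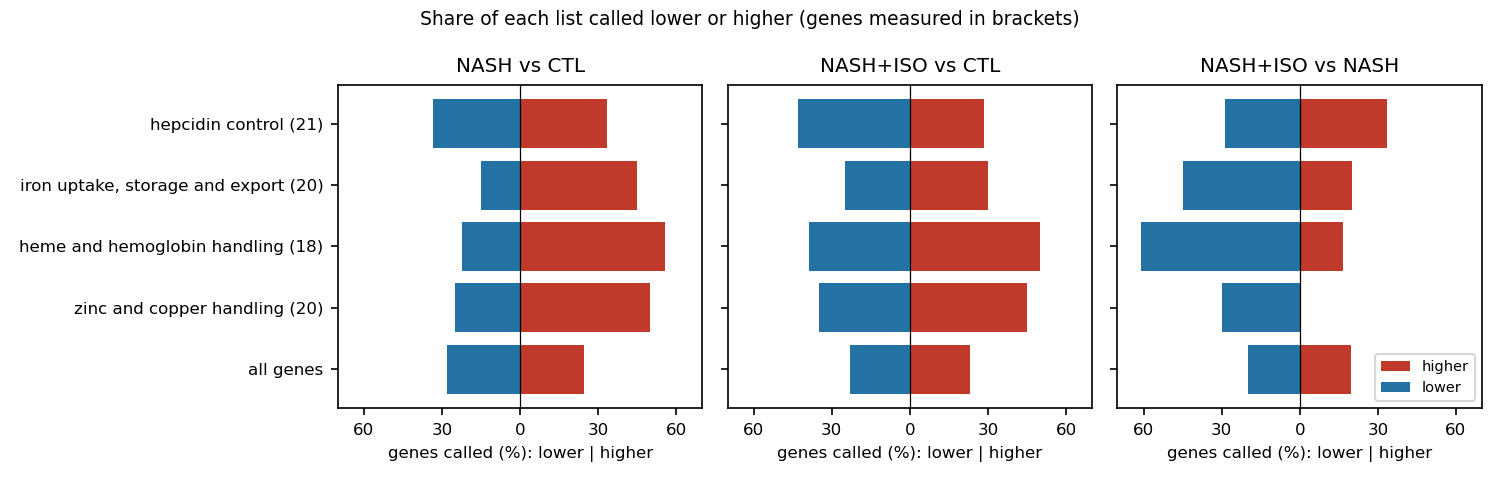
Share of the genes of each list (genes measured in brackets) and of all 20726 genes, 1 probe set per gene, that were called lower (left) or higher (right), in percent, for the 3 comparisons. In NASH+ISO against NASH, 11 of 18 heme genes were lower, and no zinc and copper gene was higher, beside 19.8% and 19.9% of all genes.

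The comparisons with CTL share its 2 arrays, so the same-sided changes of Tfrc, Cp, Slc40a1, Mt1 and Mt2 in both are not independent. Over the 23 probe sets, Hamp2 and the shared Trf probe set, no called value of a single probe set changed its direction under any alternative run in which it was measured. With the mean of a gene's probe sets, the called rises of Mt1 and Cp from NASH to NASH+ISO did turn, to values that did not pass.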

How the data were processed

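Total RNA of mouse liver was labelled and hybridised to 6 Affymetrix MG-430 PM arrays, 2 each for CTL, NASH and NASH+ISO. The deposited values are log2 signals that the authors summarised and normalised with RMA in Expression Console. The authors' workbooks hold the same measure with gene symbols, group averages, fold changes and p-values from Transcriptome Analysis Console; their symbols named the probe sets, their array values (with a mean difference of -0.0994 log2 units) served as an alternative, and their comparisons were not used. The sources used here do not name the genome build behind the probe annotation.

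Of 45141 probe sets, 104 controls were left out and 45037 were tested, of which 38068 name 1 gene, 1253 several, 5654 none and 62 hold a symbol that a spreadsheet had turned into a date. A mean per group was fitted with limma 3.58.1 in R 4.3.3 to all 6 arrays, with moderated spread and Benjamini-Hochberg adjustment. Groups came from the sample labels. The 10 genes and all lists were chosen with earlier results of these data known. All probe sets of the 10 genes are named, led by the brightest (highest mean over all arrays), and of each list up to 4 called genes with the largest difference, beside genes that a sentence needed because they did not pass. Of the listed genes, Hjv and Flvcr1 matched by an older symbol, while Erfe and Ftl1 had no probe set of their own. Promoter windows are from RefSeq (GRCm38.p6). The number of arrays limits the precision. On data simulated for NASH against CTL, 189 of 200 changed probe sets among 45037 were recovered, and 7 unchanged ones were called. Recovery at each size of difference, or with as many changed probe sets as were called in the data, was not tested. Alternatives were the arrays fitted, the moderation of the spread, scaling, filters on dim probe sets, a replicate block, the workbook values, the mean of a gene's probe sets, other fold thresholds and leaving out each array.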

Additional observations from a re-analysis of the deposited data

How the results depend on the processing

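The counts of the 23 probe sets called (17 for NASH over CTL, 15 for NASH+ISO over CTL and 16 for NASH+ISO over NASH) stayed within 1.5 times under every alternative that kept all arrays. Leaving out 1 array gave 17 to 18, 13 to 15 and 10 to 13, the 10 without NASH replicate 2, and for the genes of the 4 lists 50 to 54, 49 to 57 and 33 to 44, against 55, 58 and 46. A threshold of 1.5-fold in place of 2-fold gave 7 probe sets in place of 4 in NASH against CTL and 1 in place of none in NASH+ISO against NASH, and a threshold of 3-fold gave 2 in NASH against CTL and 0 in place of 4 in NASH+ISO against CTL.

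With the replicate block the counts were 17, 15 and 13. The 2 arrays of a number did not deviate together (correlations of 0.0465, 0.047 and 0.0916 between groups), so the numbers were not taken to pair the arrays.

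Some single differences changed sign. Bmp6 in NASH+ISO against NASH became -0.03 under median centring and under quantile normalization, -0.0015 with the workbook values, and ranged from -0.03 to 0.03 with 1 array left out (-0.03 without NASH replicate 2 and -0.02 without NASH+ISO replicate 1). Fth1 in NASH+ISO against CTL became 0.02 with the workbook values and 0.22 with the mean of its probe sets. In NASH+ISO against NASH, the mean of the probe sets gave -0.05 for Cp and -0.02 for Mt1, in place of called rises of 0.11 and 0.48. With 2 arrays a group and dim probe sets such as Bmp6 close to background, small differences cannot be resolved.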
